A study of Mus musculus with 12 samples.

Results

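The class IIa histone deacetylases Hdac4, Hdac5, Hdac7 and Hdac9 and the transcription factors Mef2a, Mef2c and Mef2d were followed in primary mouse microglia, the resident macrophages of the brain. A gene was taken when a probe set of the array carried its symbol and no other in the platform annotation, and where a gene had several such probe sets, the one with the highest mean over all arrays was kept. All 7 genes were found, of 19938 genes measured in this way. Cells of C57BL/6J pups at postnatal day 7 were captured on magnetic beads that bind CD11b, a surface protein of myeloid cells, kept in serum-containing medium for 3 days and treated for 6 h. The vehicle group received 0.4% DMSO and 0.001% ethanol. The AE1-329 group received 100 nM AE1-329, a selective agonist of the prostaglandin E2 receptor EP4, and the DMSO vehicle. The Aβ42 group received 10 µM Aβ42 as oligomers, a form of the peptide that accumulates in the plaques of Alzheimer's disease, and the ethanol vehicle. The combined group received Aβ42 and AE1-329 at these doses. Each group held 3 arrays, 1 for each of 3 litters, so that a replicate stood for a litter and not for a single animal.

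Class IIa histone deacetylases have little deacetylase activity of their own and act mainly as signal-dependent corepressors. In the nucleus they bind MEF2 factors on DNA and bring in a complex that holds Hdac3, which keeps MEF2 target genes low. When kinases such as the salt-inducible kinases, protein kinase D or the calmodulin-dependent kinases phosphorylate them, 14-3-3 proteins hold them in the cytoplasm, and MEF2 is free to recruit coactivators. EP4 is a receptor that raises cyclic AMP, and protein kinase A, which cyclic AMP activates, inhibits the salt-inducible kinases. In microglia Mef2a and Mef2c are among the factors linked to the enhancers of the resting state. Most of this control acts on the proteins and their location, which an array of transcripts does not measure.

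Values were log2 expression values, in which 1 unit is a 2-fold difference. Array medians lay between 6.97 and 7.05, and the median level of all genes was 7.41. Of the 12 microglia markers listed, 11 were measured, and their mean over each array lay between 10.88 and 11.12. Neuron markers lay between 6.35 and 6.63 by the same measure, lymphocyte markers between 5.78 and 6.01 and muscle markers between 6.54 and 6.78. Other lists lay higher, around the median level of all genes. Astrocyte markers lay between 7.08 and 7.37, endothelial and mural markers between 7.29 and 7.69 and oligodendrocyte-lineage markers between 7.43 and 7.71. Vehicle replicate 1 and AE1-329 replicate 3 stood apart from the other arrays. On them 18 and 16 genes exceeded both other arrays of the group by 1 log2 unit or more, against at most 1 gene on each other array. AE1-329 replicate 3 also had 13 genes and vehicle replicate 3 had 12 genes that far below both other arrays of the group, against at most 5 on each other array. Hdac4 was among the 18 genes of vehicle replicate 1, and its results are given with and without that array.

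Most of the 7 genes were lower after Aβ42. Aβ42 alone against vehicle lowered 5 genes (Hdac5, Hdac9, Mef2a, Mef2c and Mef2d) and raised 1 (Hdac7). On its kept probe set Hdac4 did not pass limma's test at an adjusted p of 0.05. Its second probe set passed as lower when it stood for the gene (-0.28, adjusted p = 0.000512, limma). In this comparison 25.6% of all genes tested passed, 14.8% as lower and 10.7% as higher. The arrays of the 2 groups did not overlap for any of the 7 genes, which held for 35% of all genes. The median log2 difference of the 7 genes was -0.84, beside 0.017 over all genes. This median leans on the kept Hdac4 probe set with its high vehicle array. With Hdac4 at the -0.28 of its second probe set, the middle value is that of Mef2d, -0.42. Aβ42 added to AE1-329 lowered 4 genes (Hdac5, Mef2a, Mef2c and Mef2d) and raised none. In that comparison 22% of all genes passed, 12.2% as lower and 9.77% as higher, and the arrays did not overlap for 5 of the 7 genes, against 40.1% of all genes.

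AE1-329 divided the genes. Without Aβ42 it raised Hdac5 and Mef2d and lowered Hdac9 and Mef2c. Hdac4 passed as lower only on its second probe set (-0.23, adjusted p = 0.00626, limma). Of all genes 10.2% passed in this comparison, 4.71% as higher and 5.45% as lower, and the arrays did not overlap for 5 of the 7 genes, against 22.9% of all genes. In the presence of Aβ42 it again raised Hdac5 and Mef2d and lowered Hdac9 and Mef2c. Here 11% of all genes passed, 5.99% as higher and 5.04% as lower, and the arrays did not overlap for 6 of the 7 genes, against 32% of all genes. These comparisons share no array with each other, whereas each of them shares a group with both Aβ42 comparisons. With both treatments against vehicle, Hdac5, Hdac9, Mef2a and Mef2c were lower and Hdac7 was higher, where 21.2% of all genes passed, 11.9% as lower and 9.27% as higher. Mef2d, lowered by Aβ42 and raised by AE1-329, did not pass in this last comparison. The arrays did not overlap for 4 of the 7 genes, against 30.3% of all genes.

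**Figure D1:**
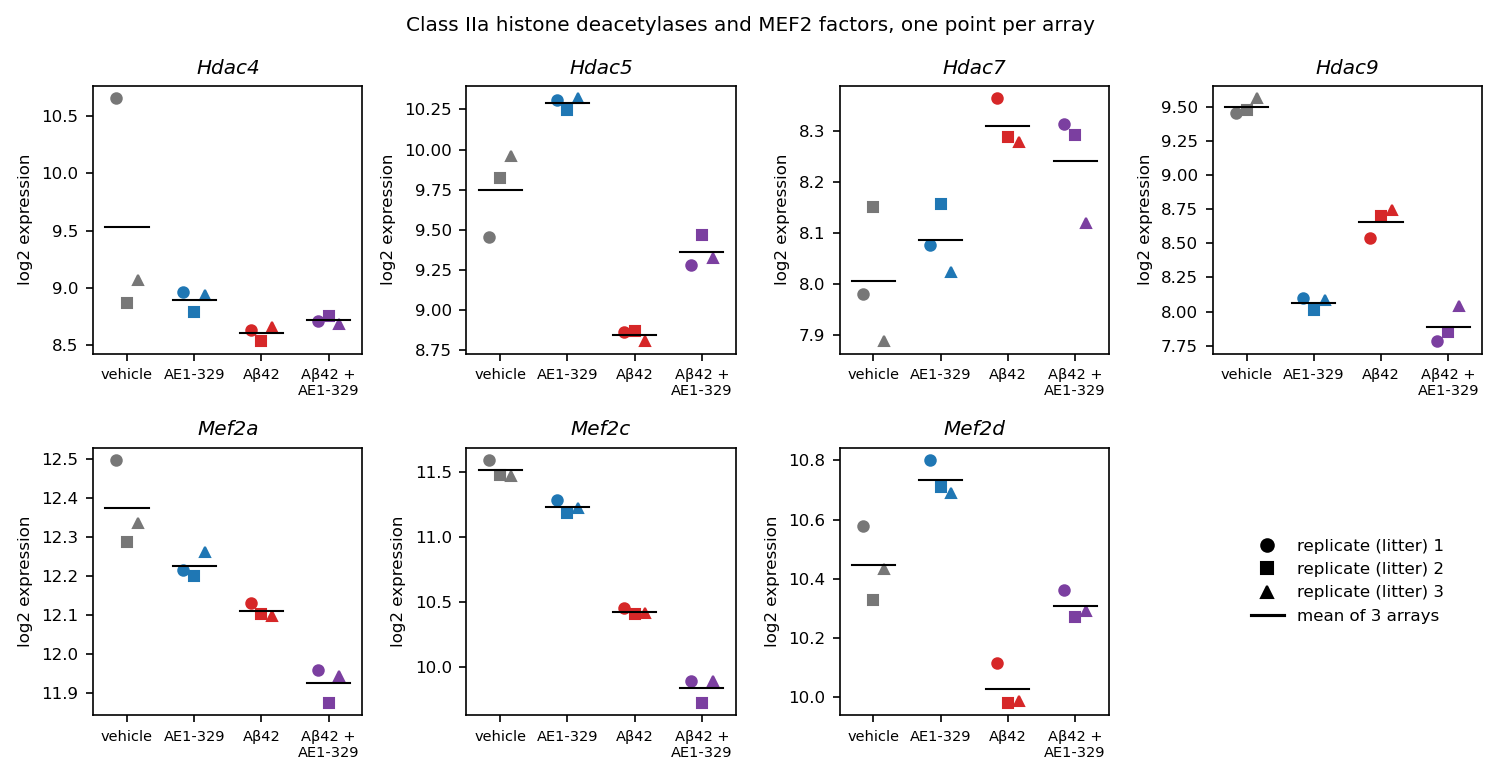
Deposited log2 expression value of each of the 7 genes on each of the 12 arrays, with 1 panel per gene, the 4 groups along the horizontal axis, 1 symbol per litter and a line at each mean of 3 arrays. Means of Mef2c and Hdac9 are lowest in the combined group, those of Hdac5 and Mef2d are highest with AE1-329 alone, and 1 vehicle array of Hdac4 lies at 10.66, above all others of that gene.

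**Figure D2:**
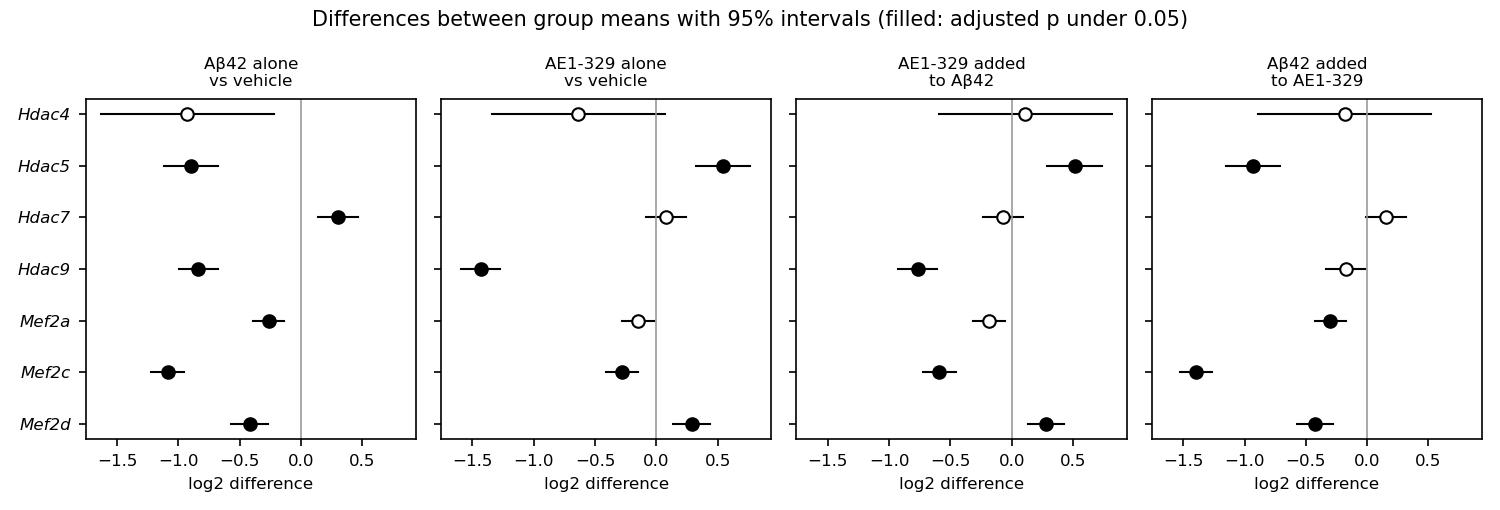
Log2 difference between group means for the 7 genes in 4 comparisons, 1 panel each, with 95% confidence intervals of the limma fit as horizontal lines and filled points where the adjusted p was under 0.05. Mef2c lies at -1.09 for Aβ42 alone and Hdac9 at -1.43 for AE1-329 alone, and the intervals of Hdac4 are the widest in each panel.

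Stretches of the members' promoters were read from a RefSeq table of assembly GRCm38.p6, in which each window runs from 250 bases before to 50 bases after a start site. They are shown because EP4 raises cyclic AMP, whose response element CREB binds, and because MEF2 factors and their corepressors can act on their own family's genes. All 7 members had a window, 13 windows in all. The TGACG core of the cyclic AMP response element and the MEF2 site, searched under its name as a 10-base pattern, were looked for on both strands. Neither overlaps the other in the stretches shown, and capitals mark the matches.
Hdac5 promoter, chr11:102230149-102230212, minus strand: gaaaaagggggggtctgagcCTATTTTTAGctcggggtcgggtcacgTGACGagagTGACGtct
Mef2a promoter, chr7:67372835-67372898, minus strand: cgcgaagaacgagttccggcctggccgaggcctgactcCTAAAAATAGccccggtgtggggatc
Hdac4 promoter, chr1:92180382-92180451, minus strand: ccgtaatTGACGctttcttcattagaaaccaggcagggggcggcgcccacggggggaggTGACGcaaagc

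The Hdac5 window held a MEF2 site that began 20 bases before the start site and 2 TGACG cores after it. Mef2a held a MEF2 site that began 2 bases before its start. Hdac4 held TGACG cores 103 and 51 bases before its start and 1 after it, outside the stretch shown. Of the 13 windows, 2 held the TGACG core and 2 the MEF2 site, beside 20.8% and 3.19% of 32851 windows of the same length. Whether any of these matches bears on a gene's response to the treatments was not tested. A match is a description of letters and not of binding, and a window without a match says only that the letters are not in it.

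Mef2c, the MEF2 factor known for its role in microglial and lymphoid gene control, fell with each treatment. Its log2 level was 11.60, 11.48 and 11.47 on the 3 vehicle arrays and 11.29, 11.18 and 11.22 with AE1-329. It was 10.45, 10.41 and 10.42 with Aβ42 and 9.89, 9.72 and 9.89 with both. The 4 groups followed each other without overlap, from vehicle at the top to the combined group at the bottom. Aβ42 alone lowered Mef2c by 1.09 ± 0.06 on the log2 scale (SE, limma), 2.13-fold, with an adjusted p of 2.19e-08. AE1-329 alone lowered it less, with a log2 difference of -0.28 ± 0.06 (adjusted p = 0.00925, limma). AE1-329 added to Aβ42 lowered it further, with a difference of -0.59 ± 0.06 (adjusted p = 3.69e-05, limma). With both treatments Mef2c stood at 31.2% of its vehicle level, a 3.20-fold difference (log2 -1.68 ± 0.06, adjusted p = 3.07e-10, limma). The differences within litters had the same sign in all 3 litters in each of these comparisons, between -1.14 and -1.05 for Aβ42 alone, between -0.31 and -0.25 for AE1-329 alone and between -0.68 and -0.52 for AE1-329 on top of Aβ42. The call for AE1-329 alone was lost in a fit to only the vehicle and AE1-329 arrays (adjusted p = 0.0546) and in a fit without vehicle replicate 1 and AE1-329 replicate 3 (0.0604).

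Mef2a, a widely expressed MEF2 factor, moved in the same order by smaller steps. Log2 levels of this gene were 12.50, 12.29 and 12.34 on the vehicle arrays and 12.22, 12.20 and 12.26 with AE1-329. It was 12.13, 12.10 and 12.10 with Aβ42 and 11.96, 11.87 and 11.94 with both, so that again no neighbouring groups overlapped. Aβ42 lowered Mef2a by 0.26 ± 0.06 (SE) log2 units against vehicle (1.20-fold, adjusted p = 0.00436, limma) and by 0.30 ± 0.06 against AE1-329 alone (1.23-fold, adjusted p = 0.00209, limma). With both treatments it was 1.36-fold lower than with vehicle (log2 -0.45 ± 0.06, adjusted p = 7.91e-05, limma). Neither step made by AE1-329 passed the test. The difference was -0.15 ± 0.06 without Aβ42 (adjusted p = 0.156, limma, 95% confidence interval -0.28 to -0.02) and -0.18 ± 0.06 with it (adjusted p = 0.0676, limma, -0.31 to -0.06). All 3 litters were lower with the agonist in both settings. With the litter as a block, the second of these did pass (adjusted p = 0.0448), as it did without vehicle replicate 1 (0.0113) or without vehicle replicate 2 (0.0488).

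Mef2d, a MEF2 factor expressed in many tissues, fell with Aβ42 and rose with AE1-329. Single arrays read 10.58, 10.33 and 10.43 with vehicle and 10.80, 10.71 and 10.69 with AE1-329. It was 10.12, 9.98 and 9.99 with Aβ42 and 10.36, 10.27 and 10.29 with both. The AE1-329 arrays were highest and the Aβ42 arrays lowest, with no overlap with any other group, while the combined group overlapped with vehicle. Aβ42 lowered Mef2d by 0.42 ± 0.07 (SE) log2 units without the agonist (1.34-fold, adjusted p = 0.000451, limma) and by 0.42 ± 0.07 with it (adjusted p = 0.000469, limma). AE1-329 raised it by 0.29 ± 0.07 without Aβ42 (1.22-fold, adjusted p = 0.0168, limma) and by 0.28 ± 0.07 with it (1.21-fold, adjusted p = 0.0181, limma). The interaction of the 2 treatments was -0.01 ± 0.10, with a 95% confidence interval from -0.22 to 0.20. The combined group lay 0.14 ± 0.07 below vehicle (log2 -0.14, adjusted p = 0.213, limma).

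The calls of Mef2d for AE1-329 did not hold without some of the single arrays. Without Aβ42 the call was lost without AE1-329 replicate 1 (adjusted p = 0.0783, limma) or vehicle replicate 2 (0.0577), and in a fit to the 2 groups alone (0.0951). With Aβ42 it was lost without replicate 1 or 3 of the combined group (0.0808 and 0.0511) or without replicate 2 or 3 of the Aβ42 group (0.0766 and 0.0774). A second probe set of Mef2d gave the same order of group means, with overlap between the vehicle and AE1-329 arrays. It read 8.69, 8.15 and 8.35 with vehicle, 8.84, 8.66 and 8.86 with AE1-329, 7.69, 7.45 and 7.68 with Aβ42, and 8.16, 7.96 and 8.06 with both. Its differences were -0.79 for Aβ42 alone, 0.39 for AE1-329 alone and 0.46 for AE1-329 added to Aβ42, the second of which did not pass (adjusted p = 0.0628, limma).

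Hdac9, the class IIa member that also exists as a shorter product without the catalytic domain, fell most with the EP4 agonist. Its log2 level was 9.45, 9.48 and 9.56 with vehicle and 8.10, 8.02 and 8.08 with AE1-329. It was 8.54, 8.70 and 8.74 with Aβ42 and 7.78, 7.85 and 8.04 with both. Vehicle arrays were highest and Aβ42 arrays next, without overlap, while the arrays of both agonist groups overlapped with each other. AE1-329 alone lowered Hdac9 by 1.43 ± 0.07 (SE) log2 units, 2.70-fold, with an adjusted p of 9.52e-08 (limma). Aβ42 alone lowered it by 0.84 ± 0.07 (1.79-fold, adjusted p = 1.71e-06, limma). Added to Aβ42, AE1-329 lowered it by 0.77 ± 0.07 (1.70-fold, adjusted p = 2.05e-05, limma). Aβ42 added to the agonist made a difference of -0.17 ± 0.07 that did not pass (adjusted p = 0.127, limma, 95% confidence interval -0.33 to -0.01), though it was negative in all 3 litters. This last difference passed without replicate 3 of the combined group (adjusted p = 0.0302). With both treatments Hdac9 was at 32.8% of its vehicle level (log2 -1.61 ± 0.07, 3.05-fold, adjusted p = 2.94e-09, limma).

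By limma's interaction test, the effect of AE1-329 with Aβ42 differed from that without it for Hdac9. In the reported fit, which had no litter block, Hdac9 was the only one of the 7 genes to pass. The interaction was 0.66 ± 0.10 (SE) on the log2 scale, with a 95% confidence interval from 0.44 to 0.89 and an adjusted p of 0.00426 (limma), where 1.95% of all genes passed, 1.03% as higher and 0.918% as lower. Within litters, the difference made by AE1-329 ran from -1.48 to -1.35 without Aβ42 and from -0.85 to -0.70 with it. For Mef2c the agonist's difference was larger with Aβ42 than without it, but the interaction of -0.31 ± 0.09 did not pass (adjusted p = 0.108, limma, 95% confidence interval -0.49 to -0.12). It passed with the litter as a block (adjusted p = 0.0431) and without vehicle replicate 1 (0.0449). For Hdac5 the interaction was -0.03 ± 0.14 (95% confidence interval -0.34 to 0.28, adjusted p = 0.990, limma). For Mef2a it was -0.04 ± 0.08 (adjusted p = 0.969, limma), for Hdac7 -0.15 ± 0.11 (0.784) and for Hdac4 0.75 ± 0.46 (0.697).

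**Figure D3:**
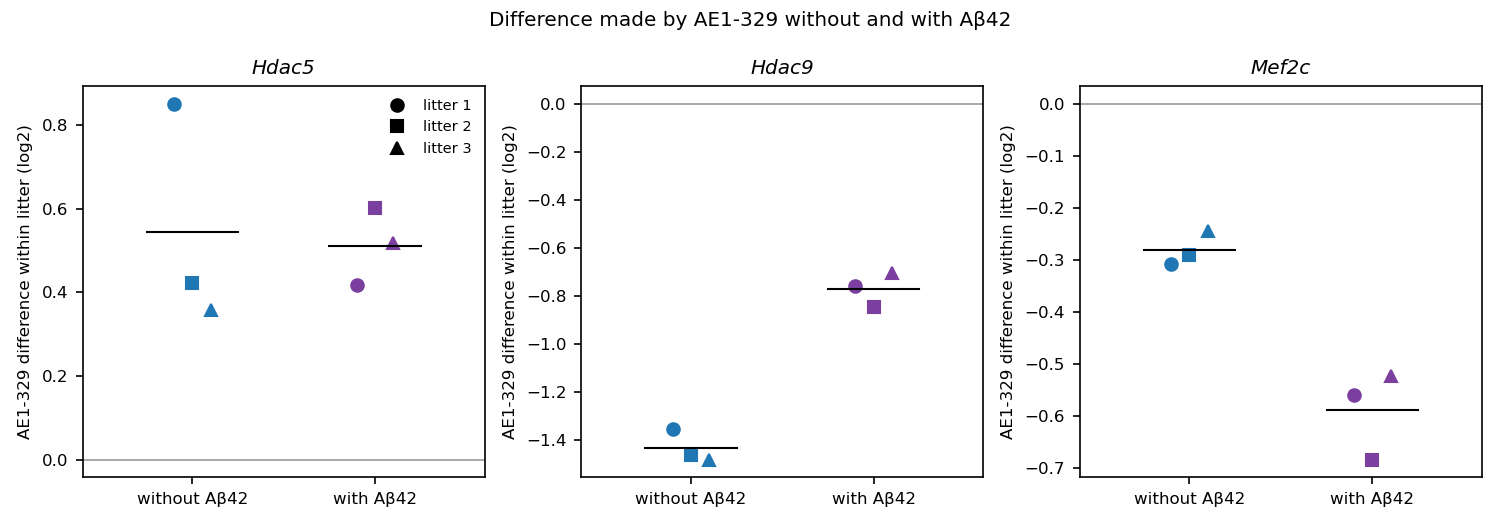
Log2 difference made by AE1-329 within each of the 3 litters, without Aβ42 and with it, for Hdac5, Hdac9 and Mef2c, with 1 symbol per litter and a bar at the mean. The bar of Hdac9 lies at -1.43 without Aβ42 and at -0.77 with it, that of Mef2c at -0.28 and -0.59, and that of Hdac5 at 0.54 and 0.51.

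Hdac5, a class IIa member and substrate of the salt-inducible kinases, rose with the agonist and fell with Aβ42. Log2 values of Hdac5 were 9.46, 9.82 and 9.96 with vehicle and 10.31, 10.25 and 10.32 with AE1-329. It was 8.87, 8.87 and 8.81 with Aβ42 and 9.28, 9.47 and 9.33 with both. AE1-329 arrays were highest and Aβ42 arrays lowest, apart from all others, and vehicle replicate 1 lay within the range of the combined group. Aβ42 lowered Hdac5 by 0.90 ± 0.10 (SE) log2 units without the agonist (1.87-fold, adjusted p = 1.80e-05, limma) and by 0.93 ± 0.10 with it (1.91-fold, adjusted p = 1.52e-05, limma). AE1-329 raised it by 0.54 ± 0.10 without Aβ42 (1.46-fold, adjusted p = 0.00368, limma) and by 0.51 ± 0.10 with it (1.43-fold, adjusted p = 0.00521, limma). Within litters the rise ran from 0.36 to 0.85 and from 0.42 to 0.60. With both treatments Hdac5 remained below vehicle, with a difference of -0.39 ± 0.10 (1.31-fold, adjusted p = 0.0146, limma). This last call was lost without replicate 1 or 3 of the combined group (adjusted p = 0.0658 and 0.0514), without vehicle replicate 3 (0.0568) and in a fit to the 2 groups alone (0.0805).

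Hdac7, a class IIa member best known from endothelial cells and thymocytes, was the only one of the 7 genes that rose with Aβ42. Its log2 level was 7.98, 8.15 and 7.89 with vehicle, 8.08, 8.16 and 8.02 with AE1-329, 8.36, 8.29 and 8.28 with Aβ42, and 8.31, 8.29 and 8.12 with both. Only the Aβ42 and vehicle groups, and the Aβ42 and AE1-329 groups, were free of overlap. Aβ42 alone raised Hdac7 by 0.30 ± 0.07 (SE) log2 units (1.23-fold, adjusted p = 0.00836, limma). Differences made by AE1-329 were 0.08 ± 0.07 without Aβ42 (95% confidence interval -0.08 to 0.24, adjusted p = 0.660, limma) and -0.07 ± 0.07 with it (-0.23 to 0.09, 0.712). Aβ42 on top of the agonist gave 0.16 ± 0.07 (adjusted p = 0.187, limma). Both treatments against vehicle gave 0.23 ± 0.07 (1.18-fold, adjusted p = 0.0416, limma), a call that was lost in 11 of 22 alternatives. Among these were the fits that left out vehicle replicate 1 (adjusted p = 0.0881) or 3 (0.149), AE1-329 replicate 1 (0.0582), replicate 1 or 2 of the combined group (0.161 and 0.136), or any of the 3 Aβ42 arrays (0.0526 to 0.0576).

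Hdac4, a class IIa member known for its roles in chondrocytes and neurons, differed most on 1 array. Log2 values of Hdac4 were 10.66, 8.87 and 9.07 with vehicle and 8.96, 8.79 and 8.93 with AE1-329. It was 8.62, 8.53 and 8.65 with Aβ42 and 8.71, 8.75 and 8.68 with both. Vehicle replicate 1 lay 1.59 log2 units above the next vehicle array, the widest such gap of the 18 genes that stood out on this array, ahead of Paip1 at 1.52. The spread of Hdac4 over the vehicle arrays (SD 0.98) ranked 2 among 19938 genes, against SDs of 0.09, 0.07 and 0.04 in the AE1-329, Aβ42 and combined groups. Over all arrays the difference made by Aβ42 alone was -0.93 ± 0.33 (SE, adjusted p = 0.0535, limma), and no comparison of Hdac4 passed. With the litter as a block the adjusted p for Aβ42 alone was 0.0283.

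Without vehicle replicate 1 the mean of the other 2 vehicle arrays was 8.97, and the difference made by Aβ42 alone was smaller and passed the test. It was -0.37 ± 0.07 (SE, adjusted p = 0.00272, limma), and that for both treatments against vehicle was -0.26 (adjusted p = 0.0253). The difference made by AE1-329 alone shrank from -0.64 to -0.07 (adjusted p = 0.656). The call for Aβ42 alone was also made without vehicle replicate 2 (adjusted p = 0.00899) or 3 (0.0285), where the high array weighs more. The platform annotation of this kept probe set listed no curated RefSeq transcript, unlike those kept for the other members. A second probe set of Hdac4 did not show the high array. It read 8.99, 9.00 and 9.02 with vehicle, 8.82, 8.73 and 8.77 with AE1-329, 8.72, 8.76 and 8.70 with Aβ42, and 8.71, 8.73 and 8.71 with both. All vehicle arrays lay above all treated arrays there, and all 3 treatments gave lower values. When this probe set stood for Hdac4, differences from vehicle were -0.28 ± 0.05 for Aβ42 alone (adjusted p = 0.000512, limma), -0.23 for AE1-329 alone (0.00626) and -0.29 for both (0.000493). AE1-329 added to Aβ42 gave -0.01 (adjusted p = 0.970) and Aβ42 added to AE1-329 gave -0.06 (0.503). Both probe sets read lower with Aβ42 alone than with vehicle, and for AE1-329 alone the second passed the test where the kept one did not.

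**Figure D4:**
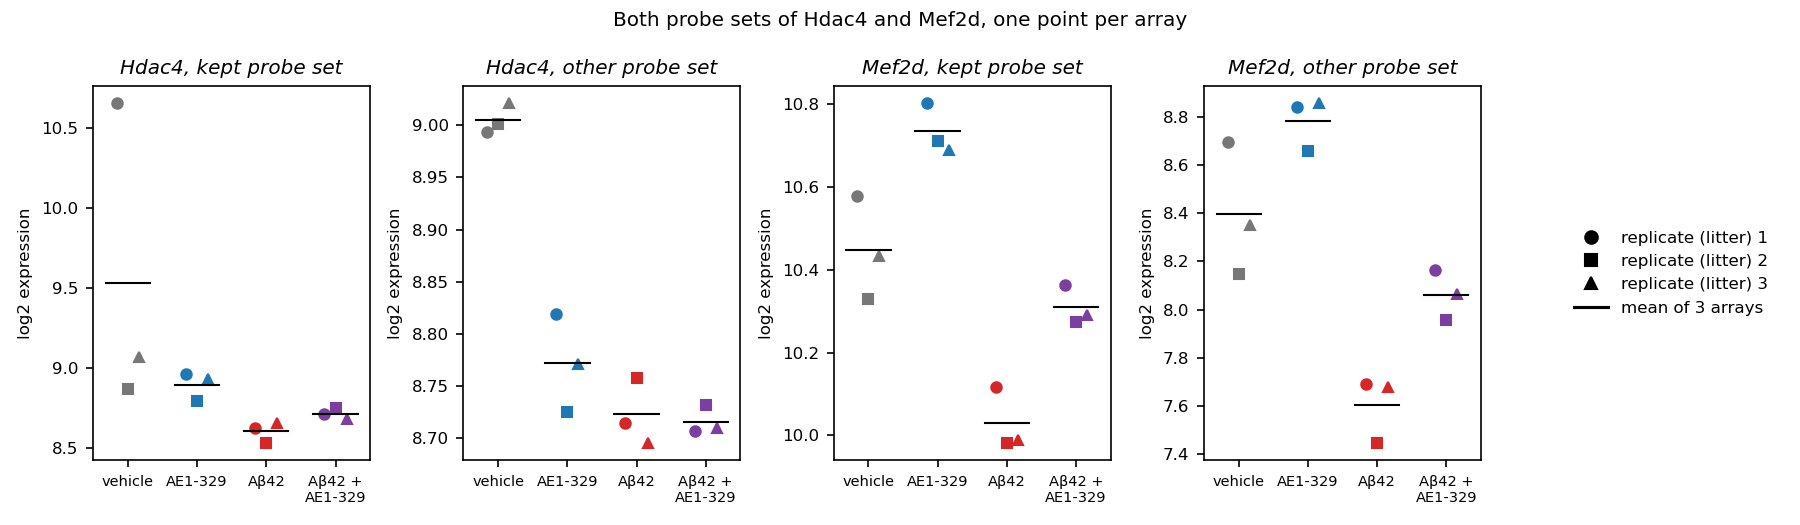
Log2 value on each of the 12 arrays for both single-symbol probe sets of Hdac4 and of Mef2d, with the kept probe set and the other one in separate panels. The kept probe set of Hdac4 reads 10.66 on vehicle replicate 1 where the other reads 8.99, and both probe sets of Mef2d have the lowest group mean with Aβ42 and the highest with AE1-329, although vehicle replicate 1 (8.69) lies above AE1-329 replicate 2 (8.66) on the second.

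Kinases linked to the phosphorylation of class IIa histone deacetylases, directly or upstream, moved in both directions. Of 16 measured, Aβ42 alone raised 3 and lowered 4, AE1-329 alone raised 3 and lowered 3, and AE1-329 added to Aβ42 raised 2 and lowered 1. These were 43.8%, 37.5% and 18.8% of the list, beside 25.6%, 10.2% and 11% of all genes in the same comparisons. The salt-inducible kinase Sik3 rose with the agonist by 0.59 ± 0.05 (SE) log2 units without Aβ42 (adjusted p = 9.93e-06, limma) and by 0.50 ± 0.05 with it (adjusted p = 3.94e-05, limma). Sik1, the family member whose transcript is known to be induced by cyclic AMP, rose from a mean of 8.77 to 9.30 with AE1-329 alone (0.53 ± 0.06, adjusted p = 5.54e-05, limma). With Aβ42 present it stood at 8.75 without the agonist and 8.80 with it (adjusted p = 0.755), and its interaction of -0.49 ± 0.08 passed (adjusted p = 0.00630, limma). The calmodulin-dependent kinase Camk1d fell with Aβ42 alone by 0.86 ± 0.09 (adjusted p = 1.02e-05, limma) and with AE1-329 alone by 0.50 ± 0.09 (0.00323). Camk2g fell with Aβ42 alone (-0.48, adjusted p = 2.23e-05, limma) and rose when the agonist was added (0.28, 0.00562), while Mark2 rose with Aβ42 alone (0.51, 0.000329). Camk2d fell on addition of the agonist (-0.21, adjusted p = 0.0224), a call lost without replicate 1 or 2 of the Aβ42 or of the combined group. The count for Aβ42 alone was 4 without Aβ42 replicate 2, and that for AE1-329 added to Aβ42 was 5 without vehicle replicate 1.

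Of 16 genes for 14-3-3 proteins, which bind phosphorylated class IIa members, and for phosphatases, which release them, Aβ42 alone raised 4 and lowered 1. AE1-329 alone raised 1 and lowered 2, and added to Aβ42 it lowered 2. The shares of 31.2%, 18.8% and 12.5% stand beside 25.6%, 10.2% and 11% of all genes, so the first and last are near the background. Ppp2r2a, a regulatory subunit of protein phosphatase 2A, rose with Aβ42 alone (0.65 ± 0.06 SE, adjusted p = 3.48e-06, limma) and fell with AE1-329 alone (-0.32 ± 0.06, 0.00479) and with AE1-329 on Aβ42 (-0.28 ± 0.06, 0.0110). Ppp2cb, a catalytic subunit of the same enzyme, rose with Aβ42 alone (0.30 ± 0.05, adjusted p = 0.000600, limma). The calcineurin subunit Ppp3ca fell in all 3 comparisons, with differences of -0.23, -0.24 and -0.26 (adjusted p = 0.00696, 0.0127 and 0.00837, limma). The 14-3-3 gene Ywhah rose with AE1-329 alone (0.24, adjusted p = 0.00601, limma). Its call was lost with the lower-mean probe set of the gene and in a fit to only the groups compared. Calls were lost for Ppp3ca with AE1-329 alone without AE1-329 replicate 1 or 2, and for Ppp2r2a with the agonist on Aβ42 without Aβ42 replicate 3. Counts moved to 3 for Aβ42 alone without Aβ42 replicate 1, to 5 for AE1-329 alone without vehicle replicate 1, and to 1 for AE1-329 added to Aβ42 without Aβ42 replicate 3.

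Among corepressors and binding partners, 11 genes were analysed. Aβ42 alone raised 2 and lowered 3, and AE1-329 raised 2 and lowered 1 in either setting. In the order Aβ42 alone, AE1-329 alone and AE1-329 added to Aβ42, 45.5%, 27.3% and 27.3% of the list were called, against 25.6%, 10.2% and 11% of all genes. Tbl1xr1, a subunit of the corepressor complex of Hdac3, fell with Aβ42 alone by 1.35 ± 0.06 (SE) log2 units (adjusted p = 2.79e-09, limma), from a mean of 9.93 to 8.57. Its paralog Tbl1x fell with AE1-329 alone (-0.46 ± 0.06, adjusted p = 0.000412, limma) and with AE1-329 on Aβ42 (-0.81 ± 0.06, 4.01e-06). Bcl6, a repressor that binds class IIa members, rose with Aβ42 alone (0.53 ± 0.06, adjusted p = 1.98e-05, limma). Rfxank, an ankyrin protein that binds them, rose with AE1-329 alone (0.25, adjusted p = 0.0139, limma) and on Aβ42 (0.30, 0.00341). Hdac3 itself differed by -0.09, 0.01 and 0.04 in these comparisons and passed in none. Smaller calls of Cbx5 (Aβ42 alone and AE1-329 on Aβ42) and Bcor (AE1-329 alone), and that of Rfxank for AE1-329 alone, were lost when single arrays were left out, among them vehicle replicate 2 or 3 for Cbx5 with Aβ42 alone and AE1-329 replicate 2 or 3 for Rfxank. The count for Aβ42 alone was 3 without Aβ42 replicate 1 or vehicle replicate 3 and 2 without vehicle replicate 2, and that for AE1-329 alone was 1 without AE1-329 replicate 3.

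The other histone deacetylases and sirtuins had shares of called genes near those of all genes, 21.4% beside 25.6% for Aβ42 alone, 7.14% beside 10.2% for AE1-329 alone and 14.3% beside 11% for AE1-329 added to Aβ42. Of 14 measured, Aβ42 alone raised Hdac1 (0.39, adjusted p = 0.0117, limma) and lowered Hdac8 (-0.40, 0.000307) and Sirt4 (-0.26, 0.00924). AE1-329 raised Sirt6 without Aβ42 (0.21, adjusted p = 0.0154, limma), and with Aβ42 it raised Sirt6 (0.22, 0.00984) and Hdac8 (0.21, 0.0458). The counts for the agonist were not stable. For AE1-329 alone the count was 0 without AE1-329 replicate 1 or 3 and 2 without vehicle replicate 2 or 3, as it was with the litter as a block. For AE1-329 added to Aβ42 it was 0 without Aβ42 replicate 2 or replicate 3 of the combined group and 4 without vehicle replicate 1. It was 1 without Aβ42 replicate 1 or 3, AE1-329 replicate 1 or 2, vehicle replicate 3 or replicate 2 of the combined group. Without vehicle replicate 1 the count for Aβ42 alone was 5.

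Of 12 kinases and coactivators of MEF2, AE1-329 added to Aβ42 raised 5 and lowered none, 41.7% of the list beside 11% of all genes called and 5.99% raised. For Aβ42 alone and AE1-329 alone the called shares were 33.3% and 8.33%, beside 25.6% and 10.2% of all genes. The genes raised on Aβ42 were Mapk11 (0.42, adjusted p = 0.000808, limma), Mapk14 (0.34, 0.00194), Mapk7 (0.27, 0.00580), Map2k3 (0.39) and Ncoa2 (0.17). The first 2 encode p38 kinases and Mapk7 encodes ERK5, all of which phosphorylate MEF2 factors. Mapk14 stood at a mean of 10.37 with Aβ42 and 10.71 with both treatments, beside 10.29 with vehicle. The calls of Mapk11, Mapk14 and Mapk7 held in all 22 alternatives, and the count fell to 3 without replicate 2 or 3 of the combined group or replicate 1 or 2 of the Aβ42 group. Aβ42 alone raised Mapk11 (0.44 ± 0.06 SE, adjusted p = 0.000163, limma) and lowered 3 genes, among them Map2k6, which encodes a p38 activator (-0.65, 0.000241), and the acetyltransferase gene Kat2b (-0.26, 0.00583). AE1-329 alone raised Map2k3 only (0.41, adjusted p = 0.0157, limma), a call that was lost without AE1-329 replicate 2 or 3. The count for AE1-329 alone was 0 without AE1-329 replicate 3, 3 without vehicle replicate 1 and 2 without vehicle replicate 3.

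Genes known as MEF2 targets in muscle, neurons, thymocytes and B cells were called in both directions. Of 17 measured, Aβ42 alone raised 1 and lowered 4, AE1-329 alone raised 2 and lowered 1, and AE1-329 added to Aβ42 raised 2 and lowered 2. These shares of 29.4%, 17.6% and 23.5% stand beside 25.6%, 10.2% and 11% of all genes, so that for Aβ42 alone is near the background. Many of the 17 genes, Mmp10 and Slc2a4 among them, had every group mean below the median level of all genes (7.41). Whether those genes were expressed in these cells is not known. Nr4a1, an immediate-early nuclear receptor repressed by class IIa members in thymocytes and also a known target of CREB, rose with AE1-329 from a mean of 8.12 to 9.63 without Aβ42 and from 7.84 to 8.96 with it. These rises were 1.51 ± 0.08 and 1.12 ± 0.08 log2 units (SE, adjusted p = 7.92e-08 and 9.44e-07, limma). Jun, an immediate-early AP-1 gene, stood at 10.59 with vehicle, 10.44 with AE1-329, 9.53 with Aβ42 and 10.39 with both. Aβ42 alone lowered it by 1.06 ± 0.09 (adjusted p = 1.48e-06, limma), AE1-329 raised it on Aβ42 by 0.86 ± 0.09 (4.71e-05) and without Aβ42 made a difference of -0.14 (0.442). The interaction of Jun was 1.01 ± 0.13 (adjusted p = 0.00126, limma). Irf8, a factor of the macrophage and B-cell lineages, fell with Aβ42 alone by 0.93 ± 0.06 (adjusted p = 1.39e-07, limma) and with AE1-329 on Aβ42 by 0.35 ± 0.06 (0.00282). Its group means of 11.50, 11.31, 10.57 and 10.22 for vehicle, AE1-329, Aβ42 and both had the same order as those of Mef2c. The interleukin-7 receptor gene Il7r fell with Aβ42 alone (-0.82 ± 0.12, adjusted p = 0.000153, limma). Calls of Mmp10 (-0.39) and Slc2a4 (0.26) with AE1-329 alone were lost without single arrays, that of Mmp10 without AE1-329 replicate 3 and that of Slc2a4 without AE1-329 replicate 1 or 2, vehicle replicate 1 or 3 or any of the Aβ42 arrays. Counts were 3 for Aβ42 alone without Aβ42 replicate 1 or 2 and 5 for AE1-329 alone without vehicle replicate 2.

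The genes whose levels ran most like a member's over the 12 arrays were named by Pearson's r as a description. Arrays of a group share their treatment and same-numbered arrays their litter. Closest to Mef2c were Man1c1, a mannosidase gene, Ncoa4, the ferritinophagy receptor, and Hpgd, which encodes the prostaglandin-degrading enzyme, each at r = 0.99, and Arrdc4 ran most opposite at -0.99. Mef2a ran with Myo5a, Rin2 and Wwp1 and opposite to Map2k1 (-0.99). Mef2d ran with Zswim6, Homez and Crtc3, a coactivator of CREB, each at 0.98, and opposite to Nsfl1c (-0.99). Hdac9 ran with Fcrl1, Mamdc2 and Efr3b (each 0.98) and opposite to Tgm2 (-0.98), whose mean was 7.88 with vehicle and 10.55 with AE1-329. Hdac5 ran with Mknk2, Tmem260 and Ctdsp2 (each 0.99) and opposite to Tra2b (-0.99). Hdac7 ran with Slco3a1, Bmp1 and Arhgap23 (0.97, 0.96 and 0.95) and opposite to Ormdl1 (-0.96). For Hdac4 the closest were Myo9a, Phc3 and Zbtb33 (0.99, 0.98 and 0.98) with Trabd opposite (-0.98), and without vehicle replicate 1 these values were 0.92, 0.90, 0.86 and -0.74.

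Markers of the cells in the culture were set beside these results, since in bulk RNA fewer cells of a type and less RNA per cell cannot be told apart. The array means of the 11 microglia markers ran from 11.07 to 11.12 with vehicle, 10.92 to 10.95 with AE1-329, 11.02 to 11.06 with Aβ42 and 10.88 to 10.93 with both. Beside the counts of every marker list stand the shares of all genes called. They were 25.6% for Aβ42 alone, 10.2% for AE1-329 alone and 11% for AE1-329 added to Aβ42. For Aβ42 added to AE1-329, both treatments against vehicle and the interaction they were 22%, 21.2% and 1.95%. Of the 11 microglia markers, Aβ42 alone raised 4 and lowered 4, and AE1-329 alone raised 1 and lowered 3. AE1-329 on Aβ42 raised 1 and lowered 2. In each of these 3 comparisons the called part of the list exceeded that of all genes. The part of these differences in those of the 7 genes was not tested. Neuron markers, 12 of 12 measured, ran from 6.41 to 6.56 with vehicle, 6.41 to 6.63 with AE1-329, 6.43 to 6.57 with Aβ42 and 6.35 to 6.55 with both, and muscle markers, 8 of 8 measured, from 6.54 to 6.78 over all arrays. No gene of either list passed limma's test in any of the 6 comparisons, and at an unadjusted p under 0.05 at most 1 neuron marker and at most 2 muscle markers did so in a comparison. Oligodendrocyte-lineage markers, 9 of 10 measured, ran from 7.52 to 7.71 with vehicle, 7.46 to 7.60 with AE1-329, 7.50 to 7.56 with Aβ42 and 7.43 to 7.48 with both, so that the combined group lay below vehicle. Of these 9 genes 2 fell with Aβ42 alone, none passed with AE1-329 alone (limma, 0 also at an unadjusted p under 0.05), 1 fell on addition of AE1-329 to Aβ42 and 2 were lower with both treatments than with vehicle. Astrocyte markers, 9 of 9 measured, ran from 7.08 to 7.33 with vehicle, 7.21 to 7.37 with AE1-329, 7.22 to 7.35 with Aβ42 and 7.24 to 7.36 with both. Among them Slc1a3 rose with Aβ42 alone (0.52, adjusted p = 0.00321, limma) and fell when AE1-329 was added (-0.42, 0.0281), and Gja1 was higher with both treatments than with vehicle (0.63, 0.0425). Array means of 9 endothelial and mural markers ran from 7.29 to 7.52 with vehicle and from 7.45 to 7.69 with AE1-329. AE1-329 alone raised 2 and lowered 1, and added to Aβ42 it raised 1 and lowered 1. Aβ42 lowered 1 without the agonist and 2 with it. With both treatments 1 was higher and 2 were lower than with vehicle, and the interaction passed for Kdr. Of 7 lymphocyte markers measured, Ms4a1 rose with Aβ42 alone (0.27, adjusted p = 0.0213, limma), and none passed in another comparison. The mural and smooth-muscle marker Acta2 had group means of 11.35 with vehicle, 11.52 with AE1-329, 11.24 with Aβ42 and 11.22 with both and passed in none of the 6 comparisons. The part of the oligodendrocyte-lineage, astrocyte, endothelial, mural and lymphocyte markers in the results for the 7 genes was not tested.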

How the data were processed

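Expression was measured on 12 Affymetrix Mouse Gene 1.0 ST arrays, and group and replicate number came from the labels. The authors deposited 1 log2 value per probe set and array. Per the submitters' processing notes RMA and Partek 6.5 were used, in roles that the notes leave unstated. Values between 2.79 and 13.95 show the log2 scale. Not given in the sources used here are filters, batch correction and genome build. Without scanner files, signal over background is unknown, and precision is set by how many arrays there were. No value column remained without a sample (0 columns).

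Of 35556 probe sets, 21789 had 1 gene symbol, 1621 several and 12146 none, and gene IDs of 21698 were matched in RefSeq's GRCm38.p6 table, used for names. This gave 19938 genes, 999 of them with several probe sets, and no filter was applied. Mef2b was not used here, since its probe set carries several symbols. The 4 group means were fitted over the 12 arrays by lmFit and eBayes of limma 3.58.1 (R 4.3.3), with 8 residual and 4.54 prior degrees of freedom. This reported fit held no term for the litter, although arrays with the same number are paired. All p-values are two-sided and adjusted by Benjamini-Hochberg over all genes within each of 6 comparisons, with a threshold of 0.05. The interaction is the difference made by AE1-329 with Aβ42 minus that without it. The script was tested on simulated data.

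The members and lists were chosen with earlier results of these data known. Named were the 7 members with all their single-symbol probe sets, in each list up to 3 genes with the smallest p among those called in the comparisons of Aβ42 alone, AE1-329 alone and AE1-329 added to Aβ42, and for each member the 3 genes with the highest and the 1 with the lowest r, leaving out predicted, olfactory and microRNA genes. Map2k3 and Ncoa2 with AE1-329 added to Aβ42, Hdac3 and the genes set beside Hdac4 on vehicle replicate 1 were named after their values were seen. So were the markers Slc1a3, Gja1, Acta2, Kdr and Ms4a1.

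The replicate number was read as the litter, which the series' design text gives as the replicate, so arrays with the same number are paired. The 18 pairs deviated together from their group means with a mean r of 0.33 (0.0044 to 0.54, 17 above 0.1), and 12 of 12 arrays correlated best with arrays of the same number. Alternatives were the litter as a block (6 residual degrees of freedom), genes above the median level, all probe sets tested, the mean of a gene's probe sets, a robust prior with a mean-variance trend, repeated quantile normalization, robust regression, only the groups compared and leaving out each array. The lower-mean probe set, and a fit without vehicle replicate 1 and AE1-329 replicate 3, were added after seeing the data.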

Additional observations from a re-analysis of the deposited data

Results flagged for a closer look

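The difference made by AE1-329 depended on whether Aβ42 was present for Hdac9 and for 2 genes of the lists, by limma's test of the interaction itself. Of all genes 1.95% passed this test. In the lists these were 1 of 16 class IIa kinases and 1 of 17 MEF2 targets, with none in the others. The calls are read singly and not as results about the lists. Among the cell markers Kdr also passed (-0.64, adjusted p = 0.0458, limma). For Hdac9 the interaction was 0.66 ± 0.10 (SE) on the log2 scale, an adjusted p of 0.00426, with a smaller fall where Aβ42 was present in all 3 litters. For the salt-inducible kinase gene Sik1 it was -0.49 ± 0.08 (adjusted p = 0.00630, limma), with a rise only in cells without Aβ42. For the AP-1 gene Jun it was 1.01 ± 0.13 (adjusted p = 0.00126, limma), with a rise on addition of AE1-329 to Aβ42.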

How the results depend on the processing

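Of 42 member results, 24 were called and 19 of these under every one of 22 alternatives (21 for the interaction, which needs all groups). No called result changed sign, and 10 others were called under no alternative. In fits to only the groups compared, AE1-329 alone had 2 members called in place of 4, and both treatments against vehicle had 3 in place of 5. For the interaction, the replicate block and robust regression each called 2 members in place of 1. The block added Hdac4 for Aβ42 alone, Mef2a for AE1-329 on Aβ42 and Mef2c for the interaction and changed no other member call. Leaving out single arrays gave 6 to 7 members for Aβ42 alone, 3 to 4 for AE1-329 alone, 3 to 5 for AE1-329 added to Aβ42 and 4 to 5 for Aβ42 added to AE1-329. It gave 3 to 6 for both treatments against vehicle, with 3 without replicate 1 of the combined group or vehicle replicate 3, and 1 to 2 for the interaction, with 2 without vehicle replicate 1. Without vehicle replicate 1 and AE1-329 replicate 3 together the counts were 7, 3, 5, 4, 5 and 1. Beyond what those settings leave out, the cause was not tested. Of 48 calls of list genes named by the rule, 33 held under every alternative and none changed sign. Robust regression raised many list counts. The share of all genes called was computed only for the reported fit. The counts under alternatives therefore have no background beside them and are not results about the members or lists. With Aβ42 alone it called 9 of 16 14-3-3 and phosphatase genes (5 in the reported fit), 7 of 14 other deacetylases (3) and 7 of 12 MEF2 kinases and coactivators (4). With AE1-329 alone it called 7 of 11 corepressors and partners (3), 4 MEF2 kinases and coactivators (1), 5 14-3-3 and phosphatase genes (3), 5 MEF2 targets (3) and 3 other deacetylases (1). With AE1-329 added to Aβ42 it called 8 of 16 class IIa kinases (3), 7 other deacetylases (2) and 5 14-3-3 and phosphatase genes (2). Fits to only the groups compared moved list counts both ways, for example class IIa kinases from 7 to 4 with Aβ42 alone, from 6 to 3 with AE1-329 alone and from 3 to 6 with AE1-329 added to Aβ42. The replicate block moved 1 list count by over 1.5 times, other deacetylases with AE1-329 alone from 1 to 2. Signal over background is unknown, so a small difference of a dim gene may be understated.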
